A study of Mus musculus with 21 samples.

Results

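The CXCL12 axis and the niche factor genes were followed through every library of the series. These genes are Cxcl12, Cxcr4, Ackr3, Kitl, Csf1, Thpo, Vcam1, Ptn, Il6 and Il7, taken by symbol. All 10 were found in both tables, among 22899 rows of the coculture table and 27968 rows of the sorted-cell table. Gene expression was measured by mRNA sequencing in 21 libraries, with 3 libraries in each of 7 groups, and is given as FPKM, fragment counts scaled to transcript length and library size, so levels are stated per length. The coculture table holds total cells on day 5 from mouse pluripotent stem cells (PSCs) of the 129/ola background. In both of its groups, hematopoietic-like colonies came from a 3D peptide induction. They were reseeded on mitomycin C-treated OP9 stromal cells in 3D+OP9 and on gelatin in 3D+0.1% gelatin. The OP9 coculture medium held SCF, IL-3 and Flt3 ligand. The sorted-cell table holds mESC (129/ola, sorted on SSEA-1 after growth on feeder fibroblasts) and 4 groups of Lin-Sca-1+c-kit+ (LSK) cells. D5-LSKCD201+ and D5-LSKCD201- were sorted on day 5 from 3D+OP9 (129/ola). FL-LSKCD201+ came from fetal liver at E12.5 and BM-LSKCD201+ from bone marrow of mice aged 6 to 8 weeks, both from C57BL/6. The series labels the PSC-derived cells and mESC as 129, while the authors' methods name both 129/ola and C57BL/6 as sources of the ESCs. As labelled, strain and culture therefore change together between the day 5 cells and the fetal liver or bone marrow cells. Their parts cannot be told apart. OP9 is a mouse bone marrow stromal line, so its transcripts and those of the PSC-derived cells count toward the same gene rows. Which fetal litters or bone marrow donors gave which library is not stated in the labels, and p-values then measure only the spread between these libraries.

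In bone marrow, CXCL12 is a chemokine made by perivascular stromal and endothelial cells. It holds hematopoietic stem cells in place through the receptor CXCR4, while ACKR3 binds and internalizes it without classical G protein signalling. Niche cells also supply stem cell factor (Kitl, the ligand of c-kit), colony-stimulating factor 1 (Csf1), thrombopoietin (Thpo, made largely by the liver), pleiotrophin (Ptn), interleukin 6 and interleukin 7. VCAM1 is an adhesion molecule that anchors cells carrying the integrin alpha 4 chain.

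Within their groups, some libraries stood apart before any gene was considered. In 3D+OP9, D5-LSKCD201-, FL-LSKCD201+ and BM-LSKCD201+, the remaining pair of libraries was less than 0.5 times as far apart as the next pair, and the library outside it was replicate 3, 2, 1 and 1, respectively. The surface markers of the sort followed their labels. Procr, which encodes CD201, was at 59.2, 61.9 and 57.9 FPKM in D5-LSKCD201+ and at 3.59, 3.02 and 3.82 FPKM in D5-LSKCD201-. The leukocyte gene Ptprc (CD45) was at 0.305 to 0.602 FPKM in D5-LSKCD201+, against 38.4 to 52.1 FPKM in FL-LSKCD201+ and 64.3 to 71.6 FPKM in BM-LSKCD201+. The endothelial marker list (14 genes) summed to 2787 to 2835 FPKM in D5-LSKCD201+ and to 235 to 611 FPKM in the other LSK groups. The stromal and preadipocyte list (20 genes) summed to 147 to 153 FPKM in D5-LSKCD201+, 58.1 to 90.8 FPKM in D5-LSKCD201-, 26.0 to 27.7 FPKM in FL-LSKCD201+ and 48.0 to 53.6 FPKM in BM-LSKCD201+.

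To show how upstream letters differ among the CXCL12 ligand, its 2 receptors and 2 secreted factors, the 120 bases before the RefSeq start site of each are printed. These 5 genes were picked with their values known. All windows are in GRCm38.p6 and written 5′ to 3′ on the gene's strand. Capitals mark matches on either strand. The TATA box was searched as TATAAA. The GC box was searched as GGGCGG and the kappa B site as GGGA and TTTCC with any 1 base between them. The core of the hypoxia response element, ACGTG, was searched too and is in none of the 5 windows. The windows are chr6:117168415-117168534 (+ strand) for Cxcl12, chr1:128592300-128592419 (- strand) for Cxcr4, chr1:90203860-90203979 (+ strand) for Ackr3, chr3:107760470-107760589 (- strand) for Csf1 and chr5:30012994-30013113 (+ strand) for Il6.
Cxcl12: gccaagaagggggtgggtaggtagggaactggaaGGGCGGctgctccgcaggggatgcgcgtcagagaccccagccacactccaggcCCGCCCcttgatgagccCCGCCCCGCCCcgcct
Cxcr4: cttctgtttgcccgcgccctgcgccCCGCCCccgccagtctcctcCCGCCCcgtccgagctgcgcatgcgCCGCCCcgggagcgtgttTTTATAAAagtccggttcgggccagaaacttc
Ackr3: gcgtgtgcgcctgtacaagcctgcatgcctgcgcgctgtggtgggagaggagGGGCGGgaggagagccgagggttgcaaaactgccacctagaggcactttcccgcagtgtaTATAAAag
Csf1: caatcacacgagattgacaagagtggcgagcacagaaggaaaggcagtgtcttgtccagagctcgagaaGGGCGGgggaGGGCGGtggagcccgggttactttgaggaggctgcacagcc
Il6: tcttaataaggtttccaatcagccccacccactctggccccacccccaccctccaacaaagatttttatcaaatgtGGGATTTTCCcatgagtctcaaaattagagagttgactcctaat
Among 32851 promoter windows of this length, 26.5% held a GC box, 6.34% a TATA box, 9.41% the hypoxia response core and 0.177% the kappa B letters. Cxcl12 had 4 GC box matches. Cxcr4 had 3 GC box matches and 2 TATA box matches that overlap each other on opposite strands. Ackr3 had 1 match to each of these 2 motifs, Csf1 had 2 GC box matches and Il6 had 1 kappa B match. Of the genes not printed, Kitl had 1 TATA box match and 2 GC box matches, and Ptn had 0 matches to any of these motifs. Thpo had 2 start sites, the one with 0 matches and the other with 1 GC box match. A match is a description of letters and was not tested as a binding site. Of the 10 genes, 8 had an entry in the RefSeq promoter table, and Vcam1 and Il7 were not among them.

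Cxcl12 was highest in the day 5 LSK cells. It was at 5.65, 4.75 and 4.19 FPKM in D5-LSKCD201+ (mean 4.86 ± 0.737, SD, n = 3) and at 3.93, 3.60 and 3.21 FPKM in D5-LSKCD201- (3.58 ± 0.357, SD, n = 3). It was at 0.653, 0.631 and 0.694 FPKM in BM-LSKCD201+, at 0.263, 0.423 and 0.421 FPKM in FL-LSKCD201+ and at 0.240, 0.220 and 0.469 FPKM in mESC. Every day 5 library lay above every other sorted library, and the FL-LSKCD201+ and mESC ranges overlapped. Changes are given as differences of log2(FPKM + 1), a scale that understates the change of low genes, and a gene is called at an adjusted p under 0.05 and a difference of at least 1 in size. In the limma test across all genes, Cxcl12 rose in D5-LSKCD201+ over FL-LSKCD201+ (log2 fold change 2.09, SE 0.12, adjusted p = 5.69e-06), over BM-LSKCD201+ (1.81, SE 0.11, adjusted p = 2.59e-06) and over mESC (2.16, SE 0.12, adjusted p = 1.55e-07). It also rose in D5-LSKCD201- over mESC (1.81, SE 0.12, adjusted p = 1.71e-05). These comparisons share libraries and are not independent of each other. Between both day 5 groups the difference was 0.35 (SE 0.12, adjusted p = 0.0379), under the size that the call asks for. In bulk RNA, fewer cells of a type and less RNA per cell cannot be told apart, here and in every result that follows.

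**Figure D1:**
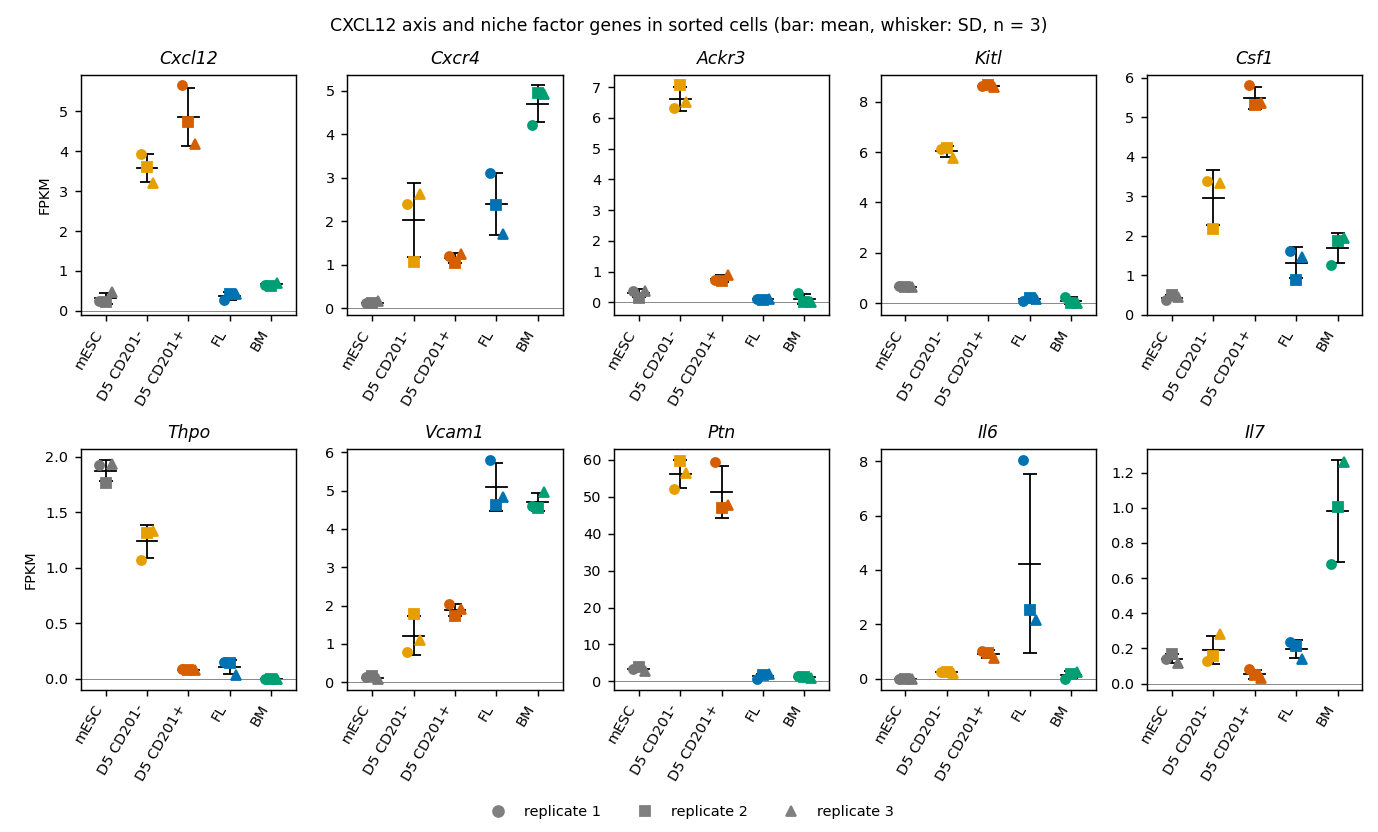
FPKM (linear axis) of the 10 genes in the 15 sorted-cell libraries, with 1 panel per gene, 1 marker shape per replicate, the mean as a bar and the SD as a whisker. Cxcl12, Kitl, Csf1 and Ptn are highest in the day 5 LSK cells, while Cxcr4 and Il7 are highest in BM-LSKCD201+ and the single high Il6 library, at 8.05 FPKM, is FL-LSKCD201+ replicate 1.

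The receptor gene Cxcr4 ran in another order. It was at 4.21, 4.96 and 4.93 FPKM in BM-LSKCD201+ (4.70 ± 0.426, SD, n = 3), at 3.11, 2.38 and 1.70 FPKM in FL-LSKCD201+ (2.40 ± 0.706, SD, n = 3) and at 1.19, 1.04 and 1.24 FPKM in D5-LSKCD201+ (1.16 ± 0.108, SD, n = 3). D5-LSKCD201- libraries were at 2.40, 1.06 and 2.63 FPKM and mESC at 0.111, 0.113 and 0.163 FPKM. The bone marrow libraries were above all others, whereas D5-LSKCD201- overlapped both FL-LSKCD201+ and D5-LSKCD201+. Cxcr4 fell in D5-LSKCD201+ relative to BM-LSKCD201+ (-1.40, SE 0.10, adjusted p = 4.91e-06), and this difference was -0.98 after quantile normalization, just under the size of a call. It rose in D5-LSKCD201- over mESC (1.38, SE 0.21, adjusted p = 0.00114). The differences of D5-LSKCD201+ from FL-LSKCD201+ (-0.64, SE 0.16, adjusted p = 0.00922), from mESC (0.93, SE 0.08, adjusted p = 3.03e-06) and of FL-LSKCD201+ from BM-LSKCD201+ (-0.76, SE 0.17, adjusted p = 0.00753) passed the p threshold but not the size. The mESC difference became a call after quantile normalization (1.07) and with 0.1 added to FPKM in place of 1 (2.46), while the fetal liver difference was -0.39 (adjusted p = 0.0616) after quantile normalization. Between the day 5 groups the difference was -0.45 (SE 0.21, adjusted p = 0.0998). Without D5-LSKCD201- replicate 2, which had stood apart, it was -0.70 (SE 0.09, adjusted p = 0.000241), without replicate 3 of that group -0.30 and after quantile normalization -0.20.

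The scavenging receptor gene Ackr3 separated both day 5 populations. It was at 6.31, 7.06 and 6.51 FPKM in D5-LSKCD201- (6.62 ± 0.387, SD, n = 3) against 0.713, 0.680 and 0.903 FPKM in D5-LSKCD201+ (0.765 ± 0.120, SD, n = 3). It was at 0.381, 0.151 and 0.351 FPKM in mESC, at 0.106, 0.0668 and 0.117 FPKM in FL-LSKCD201+ and at 0.285, 0.0224 and a listed 0 FPKM in BM-LSKCD201+. No D5-LSKCD201- library overlapped any other group, and mESC and BM-LSKCD201+ overlapped. Ackr3 fell in D5-LSKCD201+ relative to D5-LSKCD201- (-2.11, SE 0.10, adjusted p = 2.05e-06) and rose in D5-LSKCD201- over mESC (2.56, SE 0.11, adjusted p = 2.77e-06). The D5-LSKCD201+ to mESC difference was 0.45 (SE 0.10, adjusted p = 0.00210), and with 0.1 added it was 1.18 (adjusted p = 0.00399), a call. Against fetal liver and bone marrow it was not tested, since its mean was under the filter of 0.5 FPKM. The pluripotent marker list (10 genes) moved with Ackr3 between the day 5 groups, at 3777 to 4280 FPKM in D5-LSKCD201- against 26.4 to 35.5 FPKM in D5-LSKCD201+. It summed to 6891 to 7455 FPKM in mESC. The part of this list in the Ackr3 result was not tested.

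Stem cell factor followed Cxcl12. Kitl was at 8.61, 8.65 and 8.57 FPKM in D5-LSKCD201+ (8.61 ± 0.0364, SD, n = 3) and at 6.14, 6.16 and 5.78 FPKM in D5-LSKCD201- (6.02 ± 0.214, SD, n = 3). It was at 0.692, 0.656 and 0.626 FPKM in mESC, at 0.0856, 0.193 and 0.174 FPKM in FL-LSKCD201+ and at 0.244, 0.0244 and 0.0183 FPKM in BM-LSKCD201+. The levels of D5-LSKCD201+, D5-LSKCD201- and mESC formed 3 separate steps, with fetal liver and bone marrow overlapping at the bottom. Kitl rose in D5-LSKCD201+ over FL-LSKCD201+ (3.06, SE 0.08, adjusted p = 1.89e-07), BM-LSKCD201+ (3.14, SE 0.10, adjusted p = 1.07e-07) and mESC (2.54, SE 0.07, adjusted p = 1.92e-09), and in D5-LSKCD201- over mESC (2.08, SE 0.09, adjusted p = 2.77e-06). Between the day 5 groups the difference was 0.45 (SE 0.08, adjusted p = 0.00151), which is under the size of a call. Its receptor Kit, one of the genes of the LSK gate, was at 47.8, 42.3 and 43.4 FPKM in D5-LSKCD201+ and at 119, 120 and 117 FPKM in BM-LSKCD201+, a fall of the day 5 cells relative to bone marrow (-1.40, SE 0.06, adjusted p = 2.92e-07). Fetal liver, at 68.1, 40.0 and 45.5 FPKM of Kit, overlapped D5-LSKCD201+ (-0.16, SE 0.19, adjusted p = 0.463).

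Csf1, which sustains monocytes and macrophages, was likewise highest in D5-LSKCD201+. Its values were 5.81, 5.32 and 5.36 FPKM there, 3.40, 2.17 and 3.34 FPKM in D5-LSKCD201-, 1.63, 0.888 and 1.45 FPKM in FL-LSKCD201+, 1.26, 1.87 and 1.94 FPKM in BM-LSKCD201+ and 0.365, 0.506 and 0.440 FPKM in mESC. Fetal liver and bone marrow overlapped, and the other neighbours in this order did not. Csf1 rose in D5-LSKCD201+ over FL-LSKCD201+ (1.5, SE 0.14, adjusted p = 6.63e-05), BM-LSKCD201+ (1.28, SE 0.12, adjusted p = 3.17e-05) and mESC (2.18, SE 0.08, adjusted p = 1.16e-08), and in D5-LSKCD201- over mESC (1.45, SE 0.15, adjusted p = 0.000155). Between the day 5 groups the difference was 0.73 (SE 0.15, adjusted p = 0.00341), and between fetal liver and bone marrow it was -0.22 (SE 0.18, adjusted p = 0.332). The latter was -0.07 without FL-LSKCD201+ replicate 2, -0.34 without BM-LSKCD201+ replicate 1 and -0.11 after quantile normalization. Its receptor gene Csf1r was at 10.4, 8.83 and 9.71 FPKM in FL-LSKCD201+, at 0.768, 0.850 and 0.784 FPKM in D5-LSKCD201+ and at a listed 0 FPKM in all 3 mESC libraries. Csf1r was lower in D5-LSKCD201+ than in FL-LSKCD201+ (-2.56, SE 0.09, adjusted p = 6.16e-07). In BM-LSKCD201+ it was at 0.529, 1.02 and 0.934 FPKM, a range that includes the D5-LSKCD201+ values (-0.01, SE 0.12, adjusted p = 0.931). The macrophage list (10 genes, Csf1r among them) summed to 720 to 740 FPKM in FL-LSKCD201+ and to 40.9 to 42.7 FPKM in D5-LSKCD201+, and its part in that difference was not tested.

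Ptn had the highest level per length of the 10 genes in the day 5 LSK cells. It was at 59.4, 46.8 and 47.7 FPKM in D5-LSKCD201+ (51.3 ± 7.04, SD, n = 3) and at 52.2, 59.8 and 56.3 FPKM in D5-LSKCD201- (56.1 ± 3.82, SD, n = 3). It was at 3.23, 3.77 and 2.87 FPKM in mESC, 0.742, 1.78 and 1.87 FPKM in FL-LSKCD201+ and 1.35, 1.14 and 0.854 FPKM in BM-LSKCD201+. The day 5 groups overlapped each other (-0.13, SE 0.10, adjusted p = 0.292), as did fetal liver and bone marrow (0.19, SE 0.22, adjusted p = 0.483). With 1 library left out, the day 5 difference ran from -0.24 (adjusted p = 0.0403, without D5-LSKCD201+ replicate 1) to -0.07 (without replicate 2). That between fetal liver and bone marrow ran from 0.06 (without FL-LSKCD201+ replicate 3) to 0.42 (adjusted p = 0.0371, without FL-LSKCD201+ replicate 1, which had stood apart). Ptn rose in D5-LSKCD201+ over FL-LSKCD201+ by 4.43 (SE 0.21, adjusted p = 2.52e-06), over BM-LSKCD201+ by 4.63 (SE 0.13, adjusted p = 3.97e-08) and over mESC by 3.60 (SE 0.11, adjusted p = 2.96e-09). It rose in D5-LSKCD201- over mESC by 3.74 (SE 0.10, adjusted p = 4.93e-07).

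Across Cxcl12, Kitl, Csf1 and Ptn the stromal list was also higher in the day 5 cells, as given above. Of its 16 tested genes, 14 rose and 1 fell in D5-LSKCD201+ relative to BM-LSKCD201+, where 17.5% of all genes rose and 27.2% fell. Relative to FL-LSKCD201+, 12 rose and 1 fell, beside 15.1% and 19.6% of all genes. The gene that fell was Cebpa, at -4.64 (SE 0.09, adjusted p = 9.26e-09) relative to bone marrow and -2.30 (SE 0.13, adjusted p = 5.68e-06) relative to fetal liver. Pdgfrb was at -0.94 relative to bone marrow and 0.94 relative to fetal liver, neither a call. Adipoq and Ebf3 were under the filter in both comparisons. Col1a2, a fibrillar collagen chain, ran from 28.4 to 31.3 FPKM in D5-LSKCD201+ and from 0.249 to 0.377 FPKM in bone marrow. Lepr, a marker of CXCL12-producing marrow stroma, ran from 1.31 to 1.62 FPKM in D5-LSKCD201+ and was listed at 0 in every fetal liver and bone marrow library. The endothelial list (14 genes, all tested) had 12 genes higher and none lower in D5-LSKCD201+ than in bone marrow, beside the same 17.5% and 27.2% of all genes. Cdh5 (VE-cadherin) ran from 67.6 to 73.6 FPKM in D5-LSKCD201+ against at most 0.0645 FPKM in BM-LSKCD201+. The part of stromal or endothelial RNA in the 4 ligand results was not tested.

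Thpo ran against these ligands. It was at 1.93, 1.77 and 1.94 FPKM in mESC and at 1.07, 1.32 and 1.33 FPKM in D5-LSKCD201-. It was at 0.0831, 0.0794 and 0.0732 FPKM in D5-LSKCD201+, at 0.147, 0.141 and 0.0307 FPKM in FL-LSKCD201+ and at a listed 0 FPKM in each BM-LSKCD201+ library. The mESC, D5-LSKCD201- and D5-LSKCD201+ values formed 3 steps without overlap, and fetal liver overlapped D5-LSKCD201+. Thpo fell in D5-LSKCD201+ relative to mESC (-1.42, SE 0.07, adjusted p = 1.12e-07) and relative to D5-LSKCD201- (-1.05, SE 0.08, adjusted p = 2.61e-05), the latter being -0.90 after quantile normalization. Between D5-LSKCD201- and mESC the difference was -0.36 (SE 0.10, adjusted p = 0.0153), or -0.69 after quantile normalization. The pluripotent stem cell list followed the same order, summing to 6891 to 7455 FPKM in mESC, 3777 to 4280 FPKM in D5-LSKCD201- and 26.4 to 35.5 FPKM in D5-LSKCD201+, and its part in the Thpo result was not tested. Thpo was not tested against fetal liver or bone marrow, where it was under the filter. The gene Chrd lies on the opposite strand and overlaps Thpo by 1385 bases. Chrd was at 1.19, 0.647 and 1.13 FPKM in D5-LSKCD201-, 0.0892, 0.218 and 0.135 FPKM in D5-LSKCD201+ and 0.287, 0.601 and 0.363 FPKM in mESC. Whether the counting used strand is not stated, so the Thpo values are uncertain to that extent.

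**Figure D2:**
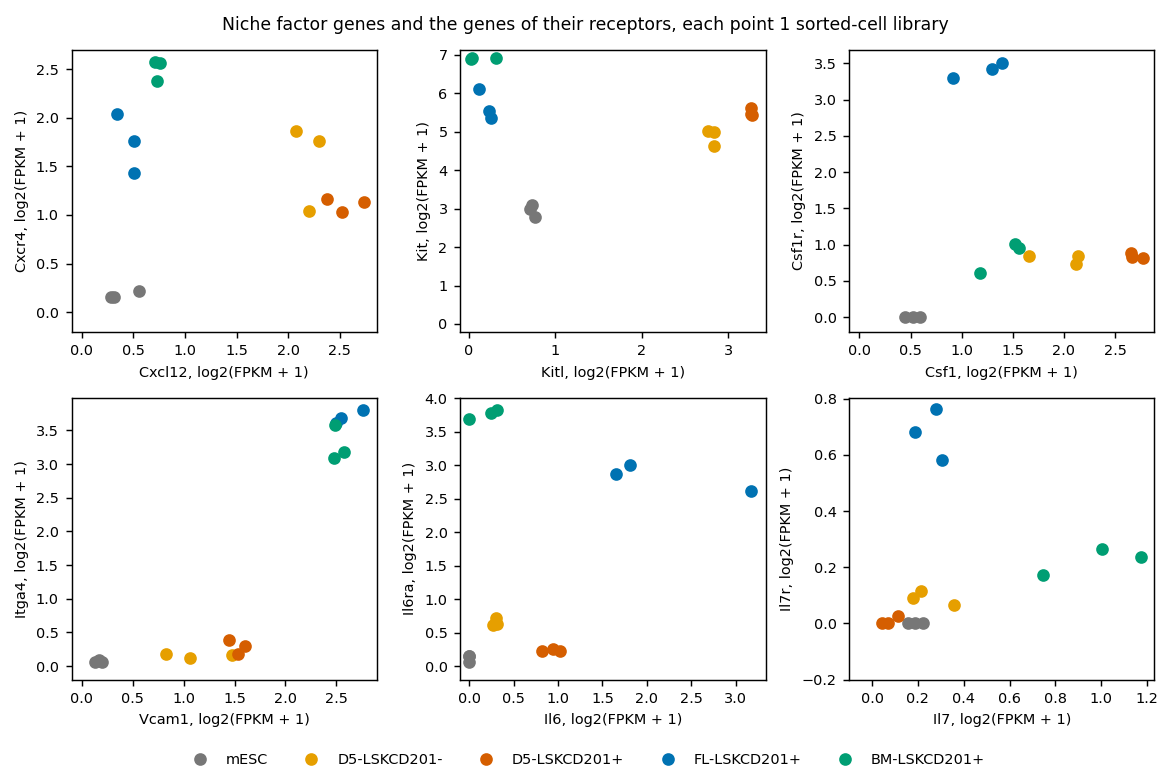
Each point is 1 sorted-cell library, with the log2(FPKM + 1) of a ligand gene on the x axis and of its receptor gene on the y axis. For Cxcl12, Kitl and Csf1 the day 5 libraries lie furthest to the right, and for Itga4 and Il6ra the FL-LSKCD201+ and BM-LSKCD201+ libraries lie above every other group.

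Vcam1, which serves adhesion, was highest in the in vivo cells. It was at 5.80, 4.63 and 4.84 FPKM in FL-LSKCD201+ and at 4.59, 4.55 and 4.98 FPKM in BM-LSKCD201+, which overlapped (0.09, SE 0.12, adjusted p = 0.553; 0.01 without FL-LSKCD201+ replicate 1 and 0.27 after quantile normalization). It was at 2.05, 1.72 and 1.90 FPKM in D5-LSKCD201+, 0.778, 1.79 and 1.09 FPKM in D5-LSKCD201- and 0.122, 0.149 and 0.0920 FPKM in mESC. Replicate 2 of D5-LSKCD201- reached into the D5-LSKCD201+ range, and that difference was 0.41 (SE 0.17, adjusted p = 0.0659), or 0.26 without D5-LSKCD201- replicate 1 and 0.65 (adjusted p = 0.0287) after quantile normalization. Vcam1 rose in D5-LSKCD201+ over mESC (1.36, SE 0.08, adjusted p = 2.46e-07). It fell relative to FL-LSKCD201+ (-1.07, SE 0.10, adjusted p = 9.06e-05) and stood at -0.98 (SE 0.09, adjusted p = 2.17e-05) relative to BM-LSKCD201+, so the 2 comparisons lie on either side of the size threshold. Without fetal liver replicate 1 the former was -0.99 and after quantile normalization -0.84, in neither case a call. The bone marrow difference became a call with 0.1 added (-1.27), without D5-LSKCD201+ replicate 1 (-1.02) and without BM-LSKCD201+ replicate 2 (-1.0), and was -0.57 after quantile normalization. D5-LSKCD201- exceeded mESC by 0.96 (SE 0.16, adjusted p = 0.00194), also short of a call. That difference became one without D5-LSKCD201- replicate 1 (1.11), with the closest pair of libraries averaged (1.05) and with 0.1 added (2.51). The overlapping antisense gene Gm43109 shares 1238 bases with Vcam1 and has no values here, so a strand effect on Vcam1 could not be examined.

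Itga4, the integrin alpha 4 chain that binds VCAM1, was at 11.3 to 12.9 FPKM in FL-LSKCD201+, 7.48 to 11.0 FPKM in BM-LSKCD201+ and 0.129 to 0.301 FPKM in D5-LSKCD201+. It was lower in D5-LSKCD201+ than in fetal liver (-3.41, SE 0.10, adjusted p = 2.43e-07) and bone marrow (-2.99, SE 0.15, adjusted p = 7.72e-07). In D5-LSKCD201- and mESC it did not exceed 0.129 FPKM. The pan-leukocyte list (10 genes) summed to 1509 to 1741 FPKM in fetal liver, 2063 to 2286 FPKM in bone marrow and 164 to 167 FPKM in D5-LSKCD201+. The macrophage list summed to 720 to 740, 457 to 492 and 40.9 to 42.7 FPKM, in that order. The part of both lists in the Vcam1 and Itga4 differences was not tested.

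Il6 was highest in fetal liver and uneven there. Its values were 8.05, 2.51 and 2.15 FPKM in FL-LSKCD201+, 1.03, 0.928 and 0.760 FPKM in D5-LSKCD201+ and 0.234, 0.242 and 0.202 FPKM in D5-LSKCD201-. BM-LSKCD201+ was at a listed 0, 0.186 and 0.243 FPKM, and all 3 mESC libraries were listed at 0. Replicate 1 of fetal liver, one of the libraries that stood apart, was above all others, and bone marrow overlapped D5-LSKCD201-. Il6 was higher in FL-LSKCD201+ than in BM-LSKCD201+ (2.03, SE 0.38, adjusted p = 0.00331). It was lower in D5-LSKCD201+ than in FL-LSKCD201+ (-1.29, SE 0.38, adjusted p = 0.0201). Without fetal liver replicate 1 that difference was -0.81 (SE 0.10, adjusted p = 0.000173), under the size of a call, and the call was also lost without any 1 of the D5-LSKCD201+ libraries, with adjusted p from 0.0530 to 0.0630. D5-LSKCD201+ exceeded D5-LSKCD201- by 0.63 (SE 0.08, adjusted p = 0.000404) and bone marrow by 0.74 (SE 0.11, adjusted p = 0.000528), both under 1. With 0.1 added to FPKM these were 1.62 (adjusted p = 0.000285) and 2.22 (adjusted p = 0.00320), both calls. Fetal liver also carried hepatocyte and erythroid markers. The erythroid list (10 genes) summed to 4978, 10956 and 10079 FPKM in its 3 libraries against at most 144 FPKM in any other sorted library, and Alb ran from 63.0 to 73.7 FPKM against at most 0.0982 FPKM. The macrophage list summed to 720 to 740 FPKM in fetal liver, 457 to 492 FPKM in bone marrow and 40.9 to 42.7 FPKM in D5-LSKCD201+. The part of these markers in the Il6 differences was not tested.

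Il6ra, the interleukin 6 receptor gene, was at 11.9, 12.7 and 13.1 FPKM in BM-LSKCD201+, 5.15, 7.03 and 6.34 FPKM in FL-LSKCD201+ and 0.173, 0.192 and 0.174 FPKM in D5-LSKCD201+. It was lower in D5-LSKCD201+ than in bone marrow (-3.53, SE 0.08, adjusted p = 1.68e-08) and than in fetal liver (-2.59, SE 0.12, adjusted p = 1.85e-06). These receptor levels ran opposite to Il6 itself in bone marrow, where the ligand was at most 0.243 FPKM.

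Il7, a lymphoid growth factor, was low throughout and highest in bone marrow. It was at 0.679, 1.0 and 1.26 FPKM in BM-LSKCD201+, 0.237, 0.215 and 0.140 FPKM in FL-LSKCD201+ and 0.0807, 0.0489 and 0.0313 FPKM in D5-LSKCD201+. It was at 0.130, 0.160 and 0.281 FPKM in D5-LSKCD201- and 0.140, 0.166 and 0.116 FPKM in mESC, both overlapping fetal liver. The difference of D5-LSKCD201+ from bone marrow was -0.90 (SE 0.12, adjusted p = 0.000254) and that of fetal liver from bone marrow was -0.72 (SE 0.14, adjusted p = 0.00454), neither reaching the size of a call. In the other comparisons Il7 was under the filter. With 0.1 in place of 1 added to FPKM, both bone marrow differences became calls, at -2.79 and -1.84. Gm16685, which overlaps Il7 by 1056 bases on the opposite strand, was at most 0.0683 FPKM in any sorted library. Il7r was at 0.498, 0.700 and 0.605 FPKM in FL-LSKCD201+ and at most 0.201 FPKM in every other library.

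Counted by comparison, D5-LSKCD201+ and FL-LSKCD201+ differed in 6 of 7 tested genes, with 4 higher in the day 5 cells (Cxcl12, Kitl, Csf1, Ptn) and 2 lower (Vcam1, Il6). Among all genes tested there, 34.7% were called, 15.1% higher and 19.6% lower. The libraries of both groups lay apart for each of the 7, as they did for 76.6% of all genes. Against BM-LSKCD201+, 5 of 8 tested genes were called, the same 4 higher and Cxcr4 lower, with 44.7% of all genes called, 17.5% higher and 27.2% lower. Each of the 8 had groups without overlap, beside 85.3% of all genes. Against mESC, D5-LSKCD201+ had 5 of 8 genes higher (Cxcl12, Kitl, Csf1, Ptn, Vcam1) and Thpo lower, where 37.6% of all genes were called, 19.5% higher and 18.1% lower. Each of the 8 had groups without overlap, beside 86.1% of all genes. D5-LSKCD201- had 6 of 8 higher than mESC (Cxcl12, Cxcr4, Ackr3, Kitl, Csf1, Ptn) and none lower, where 14.3% of all genes were called, 10.9% higher and 3.48% lower. Here too each of the 8 was without overlap, beside 64.4% of all genes. Between both day 5 groups, 2 of 9 tested genes were called, Ackr3 and Thpo, both lower in D5-LSKCD201+, where 13.9% of all genes were called lower and 10.8% higher. That share is close to the background of 24.7% in either direction, and the groups of 6 of the 9 did not overlap, beside 73.6% of all genes. Between fetal liver and bone marrow, 1 of 7 tested genes (Il6) was called, beside 19.1% of all genes, 7.78% of them higher. A single gene of 7 is near that share, and the groups of 4 of the 7 did not overlap, beside 63.5% of all genes. The filter takes the mean of both groups, so a gene under 0.5 FPKM in 1 group was tested only where the other was higher. In mESC this holds for Cxcl12 (mean 0.310 FPKM), Cxcr4 (0.129), Ackr3 (0.294), Csf1 (0.437) and Vcam1 (0.121). It also holds, among others, for Kitl in fetal liver (0.151) and bone marrow (0.0955) and for Thpo in D5-LSKCD201+ (0.0786). For such genes the filter fixed the direction.

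**Figure D3:**
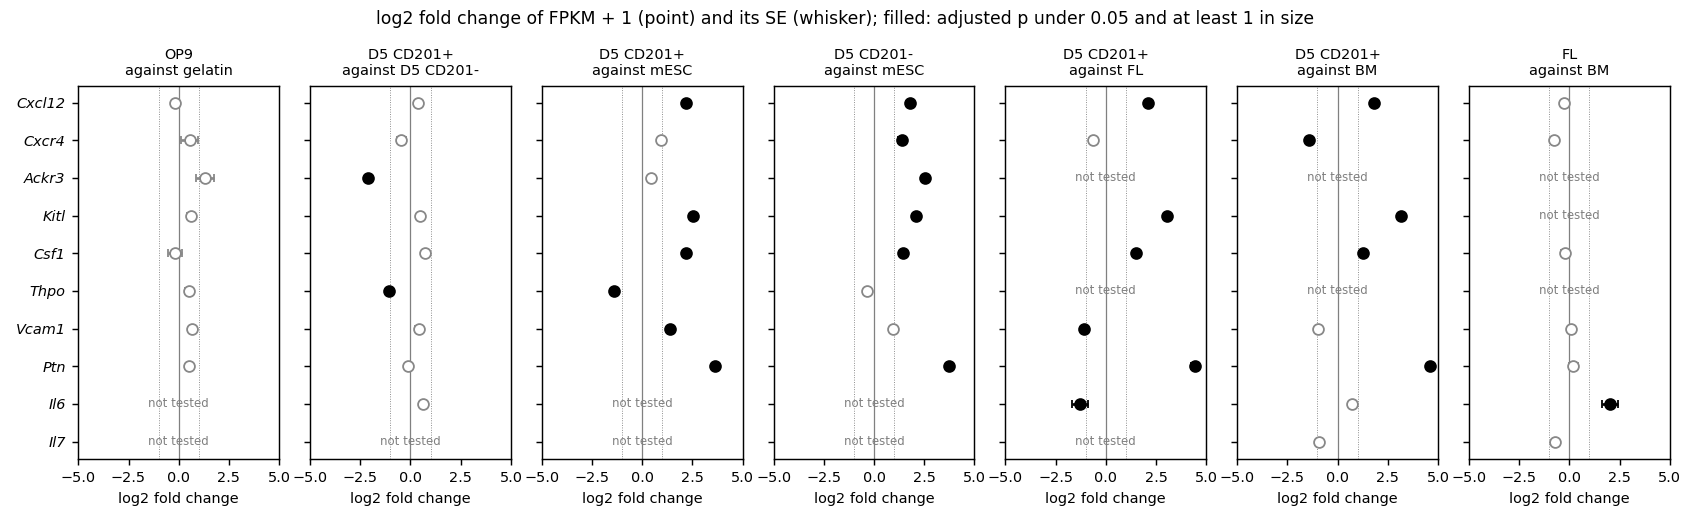
Difference of mean log2(FPKM + 1) of each gene in the 7 comparisons, with the SE as a whisker (often within the marker), dotted lines at a size of 1 and filled points for calls. Filled points lie to the right for Cxcl12, Kitl, Csf1 and Ptn in the 4 comparisons of day 5 LSK cells with mESC, fetal liver or bone marrow, and no point is filled for 3D+OP9 against gelatin.

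In the total cells of the cocultures, the question was whether OP9 stroma came with other levels of these genes than gelatin. None of the 8 tested genes was called, beside 2.62% of all genes tested (2.11% higher, 0.509% lower), while 5 of the 8 had an unadjusted p under 0.05 in the limma test, beside 22.9% of all genes. Cxcl12 was at 12.0, 13.8 and 10.9 FPKM in 3D+OP9 and at 14.8, 15.5 and 12.6 FPKM in 3D+0.1% gelatin. The groups overlapped, with gelatin the higher on average (-0.21, SE 0.12, adjusted p = 0.352), and the difference was -0.14 without 3D+OP9 replicate 3. Both tables were normalized separately, so these levels are not set against the sorted cells.

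Cxcr4 was at 10.9, 10.5 and 3.25 FPKM in 3D+OP9 and at 7.08, 4.78 and 3.00 FPKM in 3D+0.1% gelatin (0.55, SE 0.43, adjusted p = 0.497). Ackr3 was at 12.5, 14.9 and 4.73 FPKM against 6.63, 1.97 and 2.59 FPKM (1.31, SE 0.46, adjusted p = 0.147). For both receptors, replicate 3 of 3D+OP9 fell within the gelatin range while replicates 1 and 2 lay above it. Without that library, which had stood apart, Cxcr4 (1.03, SE 0.26, adjusted p = 0.0406) and Ackr3 (1.76, SE 0.37, adjusted p = 0.0205) were both called higher on OP9. The Cxcr4 difference was 0.29 without 3D+OP9 replicate 1 or gelatin replicate 3 and 0.32 without 3D+OP9 replicate 2. The same library had a pluripotent list sum of 1731 FPKM, against 904 and 896 FPKM in the other 3D+OP9 libraries and 1325 to 1404 FPKM on gelatin, and the part of that in the result was not tested.

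Kitl was at 5.04, 5.08 and 3.00 FPKM in 3D+OP9 and at 2.74, 2.75 and 2.0 FPKM on gelatin, without overlap (0.60, SE 0.19, adjusted p = 0.120). Ptn was at 8.49, 7.03 and 8.41 FPKM against 4.08, 6.28 and 5.43 FPKM, also without overlap (0.53, SE 0.16, adjusted p = 0.0943). The groups of 4 of the 8 tested genes (Kitl, Ptn, Vcam1 and Thpo) did not overlap, beside 28.7% of all genes in this comparison. Csf1 was at 3.65, 3.37 and 8.55 FPKM against 4.44, 4.39 and 8.38 FPKM, and replicate 3 was the highest in both groups (-0.17, SE 0.34, adjusted p = 0.821). This difference ran from -0.53 without 3D+OP9 replicate 3 to 0.10 without gelatin replicate 3. The OP9 line descends from op/op mice, which lack functional CSF1 protein. Whether OP9 transcripts contributed to the Csf1 values was not tested.

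Vcam1 was at 0.64, 0.75 and 1.18 FPKM in 3D+OP9 and at 0.14, 0.21 and 0.12 FPKM on gelatin. No library overlapped, and the difference of 0.67 (SE 0.14, adjusted p = 0.0323) passed the p threshold but not the size, whereas it was 1.87 with 0.1 added in place of 1. Thpo was at 0.92, 0.95 and 1.96 FPKM against 0.54, 0.46 and 0.74 FPKM (0.50, SE 0.19, adjusted p = 0.173), a difference that was 0.30 without 3D+OP9 replicate 3, the library that had stood apart. Its overlapping neighbour Chrd was at 1.83, 1.64 and 1.27 FPKM against 0.70, 0.82 and 1.03 FPKM. Il6, at 0.73, 0.59 and 0.24 FPKM in 3D+OP9 and a listed 0, a listed 0 and 0.05 FPKM on gelatin, was under the filter, as was Il7, at 0.05, 0.09 and 0.09 FPKM against 0.11, 0.20 and 0.20 FPKM. Neither pair of groups overlapped, and the smallest p that an exact permutation test of 3 against 3 allows is 0.1.

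**Figure D4:**
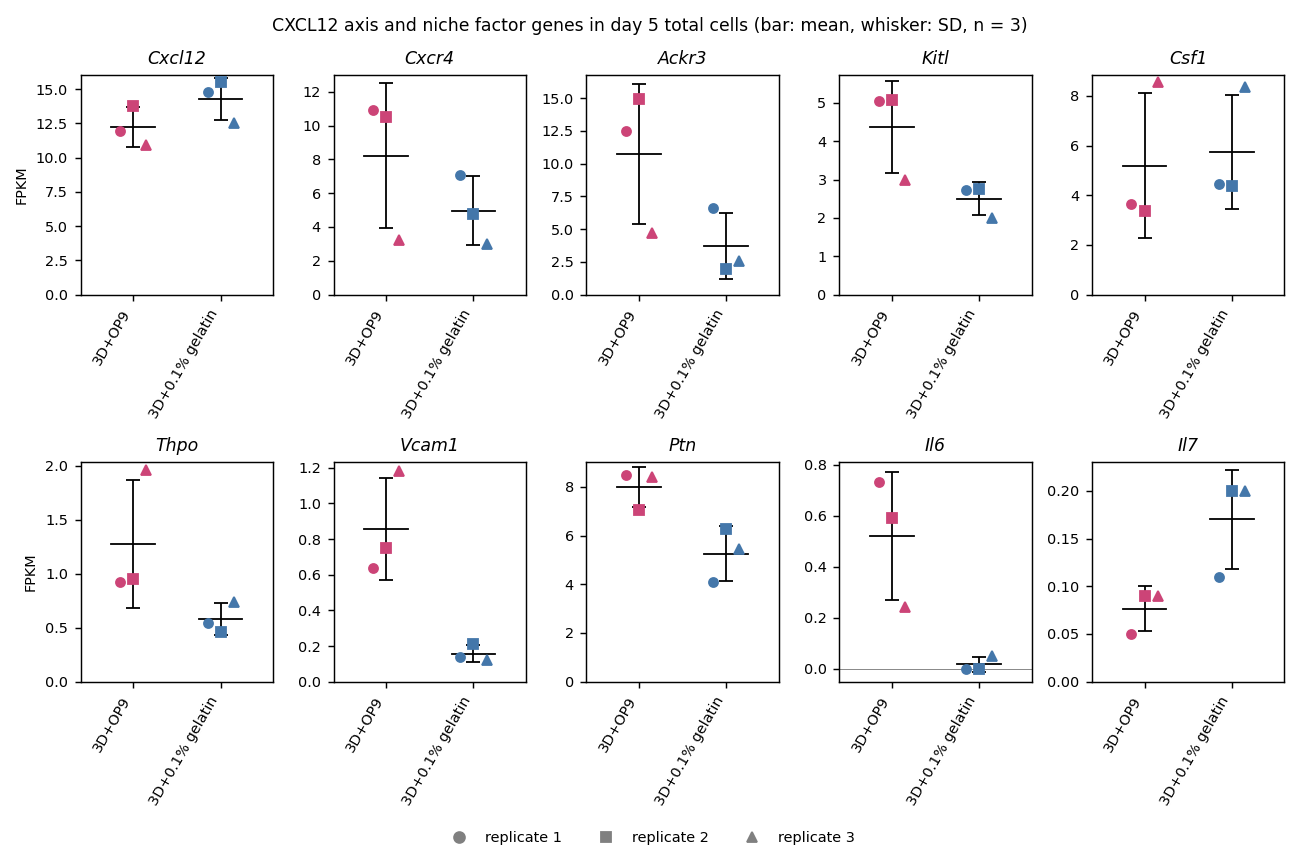
FPKM (linear axis) of the 10 genes in the 6 day 5 total-cell libraries, with 1 marker shape per replicate, the mean as a bar and the SD as a whisker. Vcam1 in 3D+OP9 (0.64 to 1.18 FPKM) lies clear of gelatin (0.12 to 0.21 FPKM), and replicate 3 of 3D+OP9 lies apart from replicates 1 and 2 for Cxcr4, Ackr3, Kitl, Csf1 and Thpo.

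Stromal and other lineage markers also differed between the cocultures. The stromal list summed to 89.7 to 96.0 FPKM in 3D+OP9 and 50.5 to 62.0 FPKM on gelatin, with 5 of 17 tested genes higher and none lower, where 2.11% of all genes rose and 0.509% fell. Postn (periostin), a matrix protein of stromal cells, rose by 2.34 (SE 0.36, adjusted p = 0.0103), while Adipoq was at most 0.04 FPKM in 3D+OP9. The endothelial list summed to 141 to 167 FPKM against 29.9 to 45.5 FPKM, with 10 of 13 tested genes higher, beside the same 2.11%. The erythroid list summed to 219 to 783 FPKM against 5.29 to 23.1 FPKM. Whether OP9 transcripts contributed to the values of Vcam1, Kitl or Ptn was not tested.

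The receptors of these factors and the wider niche list gave the setting in the cocultures. Of 9 tested genes of the receptor list (14 genes), 2 rose on OP9 and none fell, where 2.11% of all genes rose. Kit rose by 1.05 (SE 0.19, adjusted p = 0.0173), and the list median was 0.62 beside 0.01 over all genes. Kit was at 13.3, 12.6 and 12.9 FPKM against 8.11, 4.90 and 4.59 FPKM on gelatin, without overlap. The other niche factors (30 genes listed, 17 tested) had 5 genes higher and none lower, with a median of 0.32. The highest were Spp1 (osteopontin; 3.70, SE 0.53, adjusted p = 0.00805), Cxcl1 (2.85, SE 0.23, adjusted p = 0.00115) and Ccl2 (2.74, SE 0.38, adjusted p = 0.00721), the last 2 being chemokines for neutrophils and monocytes. Of 23 tested genes of the CXCL12 signalling list, Stat3 rose (1.46, SE 0.15, adjusted p = 0.00276), Cd74, a receptor component for MIF, fell (-1.02, SE 0.13, adjusted p = 0.00481), and the median was -0.08.

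In the sorted cells, the CXCL12 signalling list (28 genes measured) held more genes that fell than rose in D5-LSKCD201+ relative to the in vivo cells. Of 28 tested, 2 rose and 14 fell relative to FL-LSKCD201+, with a median of -0.71 beside -0.16 over all genes. Those that fell most were Rac2 (-5.80, SE 0.13, adjusted p = 1.04e-07), a hematopoietic small GTPase, Rgs18 (-5.15, SE 0.10, adjusted p = 6.78e-08), which shortens G protein signals, and Vav1 (-4.43, SE 0.19, adjusted p = 1.65e-06), an exchange factor for Rac. Of all genes in that comparison, 15.1% rose and 19.6% fell. Relative to BM-LSKCD201+, 1 of 28 rose and 13 fell (median -0.71 beside -0.23), where 17.5% of all genes rose and 27.2% fell. The genes that fell most were Rgs1 (-8.32, SE 0.06, adjusted p = 7.38e-10), Cd74 (-8.07, SE 0.08, adjusted p = 9.46e-10) and Rgs18 (-6.12, SE 0.08, adjusted p = 1.85e-09). Rgs1, another regulator of G protein signalling, had a mean of 428 ± 12.6 FPKM (SD, n = 3) in bone marrow, 15.1 ± 0.476 FPKM (SD, n = 3) in fetal liver and 0.339 ± 0.0527 FPKM (SD, n = 3) in D5-LSKCD201+. Rac2, Rgs18 and Vav1 are expressed across blood cells, and the pan-leukocyte list (10 genes, Vav1 among them) summed to 164 to 167 FPKM in D5-LSKCD201+, 1509 to 1741 FPKM in fetal liver and 2063 to 2286 FPKM in bone marrow. Its part in these counts was not tested.

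Between the day 5 groups, 6 of 26 tested genes of that list rose and 3 fell in D5-LSKCD201+. Prkcz, an atypical protein kinase C, fell by 2.85 (SE 0.10, adjusted p = 6.36e-07), Rgs16 fell by 1.43 (SE 0.28, adjusted p = 0.00299), and Stat3 rose by 1.38 (SE 0.05, adjusted p = 7.40e-07). Relative to mESC, 6 of 24 rose and 2 fell in D5-LSKCD201+, and 3 of 24 rose and 1 fell in D5-LSKCD201-. Of all genes, 24.7%, 37.6% and 14.3% were called in these comparisons, in that order. Fetal liver and bone marrow differed in 4 of 27, all lower in fetal liver, beside 19.1% of all genes called. Outside the comparison of the day 5 groups, these shares of the list are near or under those of all genes, and nothing is read from them. Among the 4 were Rgs1 at -4.73 (SE 0.08, adjusted p = 2.97e-07) and Cd74 at -4.71 (SE 0.36, adjusted p = 4.91e-05).

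The receptor list split in D5-LSKCD201+, with 4 of 11 tested genes higher and 5 lower than in fetal liver, and 4 higher and 6 lower than in bone marrow. Those higher in both comparisons were Itgb1, Il6st, Ptprb and Sdc3. The integrin chain Itgb1 was higher than in fetal liver by 2.06 (SE 0.09, adjusted p = 1.50e-06) and than in bone marrow by 1.94 (SE 0.05, adjusted p = 3.87e-08). Il6st, a chain of the interleukin 6 receptor, was higher by 1.92 (SE 0.15, adjusted p = 2.61e-05) and 1.79 (SE 0.08, adjusted p = 4.03e-07), in that order. Beside Itga4 and Il6ra, the integrin chain Itgb7 fell relative to bone marrow (-4.15, SE 0.11, adjusted p = 3.89e-08). Against mESC, 6 of 8 rose and 1 fell, led by Il2rg, the common cytokine receptor chain that pairs with the interleukin 7 receptor (5.12, SE 0.09, adjusted p = 1.23e-10). Il2rg was also the gene of this list that rose most over D5-LSKCD201- (4.39, SE 0.09, adjusted p = 6.84e-08), followed by Ptprb (2.32, SE 0.08, adjusted p = 5.41e-07), an endothelial phosphatase, with 4 of 9 higher and 1 lower. D5-LSKCD201- had 2 of 7, Kit among them, higher than mESC. Kit is counted as higher than mESC in both day 5 groups, but it belongs to the LSK gate, so its rise is no separate result. Fetal liver had 1 of 10, Csf1r, higher than bone marrow (2.55, SE 0.15, adjusted p = 1.44e-05) and 3 lower. The share of all genes called was 34.7% against fetal liver, 44.7% against bone marrow, 37.6% against mESC and 24.7% between the day 5 groups. It was 14.3% for D5-LSKCD201- against mESC and 19.1% between fetal liver and bone marrow.

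Among the other niche factors, more genes rose than fell in D5-LSKCD201+. Of 18 tested, 11 rose and 3 fell relative to FL-LSKCD201+ (median 1.19 beside -0.16), and of 19 tested, 11 rose and 4 fell relative to BM-LSKCD201+ (median 1.40 beside -0.23). Flt3l stands in 2 rows of the sorted-cell table, of which 1 was called lower in both of these comparisons and the other was not, and it was left out of the counts. Igf2, a fetal growth factor, had a mean of 1676 ± 22.4 FPKM (SD, n = 3) in D5-LSKCD201+, 43.3 ± 6.84 FPKM (SD, n = 3) in fetal liver and 1.78 ± 1.05 FPKM (SD, n = 3) in bone marrow, and rose by 5.25 (SE 0.12, adjusted p = 1.21e-07) and 9.31 (SE 0.25, adjusted p = 4.00e-08), respectively. Spp1 rose by 7.12 (SE 0.12, adjusted p = 4.50e-08) over fetal liver and by 5.78 (SE 0.19, adjusted p = 9.70e-08) over bone marrow. Angpt1, the TIE2 ligand, went the other way, with a mean of 1.09 ± 0.0575 FPKM (SD, n = 3) for D5-LSKCD201+, 36.2 ± 2.09 FPKM (SD, n = 3) in fetal liver and 96.2 ± 1.94 FPKM (SD, n = 3) in bone marrow, and differences of -4.15 (SE 0.08, adjusted p = 6.41e-08) and -5.54 (SE 0.06, adjusted p = 1.02e-09). Against mESC, 12 of 16 rose and none fell in D5-LSKCD201+, and 9 of 16 rose and none fell in D5-LSKCD201-. Against D5-LSKCD201-, 6 of 19 rose, led by Igf2 and Igf1, and 2 fell. Between fetal liver and bone marrow, 2 of 13 rose and 4 fell in fetal liver. Of all genes, 15.1% rose in D5-LSKCD201+ over fetal liver, 17.5% over bone marrow, 19.5% over mESC and 10.8% over D5-LSKCD201-. In D5-LSKCD201-, 10.9% rose over mESC, and 19.1% were called between fetal liver and bone marrow.

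By Pearson r of log2(FPKM + 1) over the 15 sorted-cell libraries and 14457 genes, the closest genes to each of the 9 members that averaged 0.5 FPKM or more were named as a description. Group means carry most of such an r, since the libraries fall into 5 groups. Closest to Cxcl12 were P4ha1 (r = 0.991), Stard8 (0.989) and Rcn1 (0.988), to Kitl Lhfp (0.997), Col6a1 (0.996) and Col6a2 (0.995), and to Ptn Col6a2 (0.994), Col6a1 (0.993) and Pdlim3 (0.993). Kitl and Ptn thus shared both collagen VI chains. Closest to Ackr3 were Fgf10 (0.994), Ube2ql1 (0.991) and Fgf8 (0.990), to Thpo Pnldc1 (0.996), Urah (0.996) and Tdgf1-ps1 (0.995), and to Vcam1 Zfp422 (0.994), Bach1 (0.991) and Tspo (0.990). Closest to Csf1 were Neu1, App and Csrp1 (0.970 to 0.971), to Cxcr4 Pck2 (0.970), Abcc3 (0.966) and Arsk (0.964), and to Il6 Hbb-y (0.963), Pigq (0.942) and Ankrd52 (0.933). Ranked by Spearman correlation instead, 1 of the 3 genes was shared for Cxcr4 and 0 of 3 for each of the other 8.

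The genes lie apart in the genome (GRCm38, GENCODE M21), all protein coding. Cxcl12 is at chr6:117168535-117181367 (+ strand), Cxcr4 at chr1:128588199-128592293 (- strand) and Ackr3 at chr1:90203980-90216751 (+ strand). Kitl is at chr10:100015630-100100416 (+ strand), Csf1 at chr3:107741048-107760469 (- strand), Thpo at chr16:20724454-20734511 (- strand) and Ptn at chr6:36714929-36810220 (- strand). Vcam1 is at chr3:116109949-116129688 (- strand), Il6 at chr5:30013114-30019981 (+ strand) and Il7 at chr3:7569994-7613760 (- strand). Only Thpo, Vcam1 and Il7 overlap another annotated gene.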

How the data were processed

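The authors deposited FPKM per gene in 2 tables, 1 for day 5 total cells and 1 for sorted cells. mRNA libraries were made with a VAHTS kit, and the submitters' processing notes name HISAT2 2.0.5, StringTie 1.3.3 and Cuffdiff 1.3.0, with GRCm38 and mm9 as builds, and gene loci in the sorted-cell table follow GRCm38. Of the 22899 coculture rows, 3578 with no value in any library were left out. Neither counts nor depth can be read from FPKM, so counting error is unknown. The authors ran Cuffdiff, which needs reads. Instead, limma 3.58.1 in R 4.3.3 (empirical Bayes with a trend, two-sided) was run on log2(FPKM + 1) for each pair of groups, over genes that averaged 0.5 FPKM or more in the 6 libraries compared, with Benjamini-Hochberg adjustment over all of them. Calls needed an adjusted p under 0.05 and a log2 fold change of at least 1 in size. The code was tested on simulated data. The 10 genes and the lists were chosen with earlier results of these data known. Beyond the 10 genes, the text names the receptors Kit, Csf1r, Il7r, Il6ra and Itga4 (1 other receptor is not reported here), the 3 called genes with the largest change of each pathway list, and the 3 genes most like each member by Pearson r. The markers, Chrd, Gm16685 and Gm43109 were named outside that rule after their values were seen. So were Itgb1, Il6st, Ptprb and Sdc3 against fetal liver and bone marrow. Samples were grouped by their labels. Replicate numbers are shared between groups. Deviations of same-numbered FL-LSKCD201+ and BM-LSKCD201+ libraries correlated at 0.24, 0.20 and 0.16, and those of 3D+OP9 and gelatin at 0.18, 0.07 and 0.29. Each comparison was also fitted with the replicate number as a block. Alternatives were no filter, a filter at 1 FPKM, an added 0.1, quantile normalization, adjusted p alone, leaving out each library and the replicate block. Averaging the closest pair of libraries was added after seeing the data. Motifs were searched in RefSeq promoter windows of GRCm38.p6 with Python 3.11.15.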

Additional observations from a re-analysis of the deposited data

How the results depend on the processing

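Of 55 differences tested for the 10 genes, 33 kept their direction and call under every alternative, and 15 gained a call with adjusted p alone. With 0.1 added, 27 of the 55 were more than 1.5 times as large. The sign changed only for Csf1 in 3D+OP9 against gelatin, which was 0.04 without 3D+OP9 replicate 2, 0.10 without gelatin replicate 3 and 0.013 with the closest pair of libraries averaged, and ran from -0.53 to 0.10 over the single libraries left out. With adjusted p alone, the genes called higher were 1 for 3D+OP9 against gelatin and 4 for D5-LSKCD201+ against D5-LSKCD201-, and those called lower were 1 for D5-LSKCD201- against mESC, 3 for D5-LSKCD201+ against BM-LSKCD201+ and 2 for FL-LSKCD201+ against BM-LSKCD201+. With 0.1 added, 1 was called higher in each of the first 2 of these comparisons, 3 lower against BM-LSKCD201+ and 1 lower between fetal liver and bone marrow. A filter at 1 FPKM, which removes Thpo, left 1 lower between the day 5 groups and 0 for D5-LSKCD201+ against mESC. With no filter, 1 was lower against FL-LSKCD201+. Quantile normalization gave 1 lower between the day 5 groups, 1 against FL-LSKCD201+ and 0 against BM-LSKCD201+, and it moved the median of all genes from -0.12 to -0.02, -0.16 to -0.06 and -0.23 to -0.03, respectively, and also from 0.05 to -0.09 for D5-LSKCD201- against mESC and from -0.13 to -0.02 for FL-LSKCD201+ against BM-LSKCD201+. Leaving out 1 library at a time gave 0 to 2 genes higher in 3D+OP9, 0 to 2 lower against FL-LSKCD201+ and 1 to 2 lower against BM-LSKCD201+. Elsewhere the counts stayed within 1.5 times the main count. The replicate block changed no count of members called, in FL-LSKCD201+ against BM-LSKCD201+ (1 higher, 0 lower) or elsewhere. In the other 6 comparisons correlations of deviations ran from -0.20 to 0.29, the highest being in 3D+OP9 against gelatin. What samples of the same number share is not stated in the labels. Depth is unknown, so values under about 0.1 FPKM carry no stated error.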
